A study of Mus musculus with 16 samples.

Results

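The response of light zone germinal centre B cells to an activating antibody against CD40 was followed across all genes, by comparing 4 libraries from mice given anti-CD40 with 4 libraries from mice given an isotype control antibody. Those 8 libraries were taken from a series of 16, in which the other 8 hold dark zone cells from the same pair of treatments. All groups came from wild-type mice and from lymph node, and all were collected 4 h after the antibody had been given in vivo. Light zone (LZ) and dark zone (DZ) cells had been sorted, and polyadenylated RNA was read at its 3′ end with a unique molecular identifier (UMI) on each captured transcript. The labels state no antibody dose, age, immunization, sorting gate or number of mice, and do not say whether the 4 libraries of a group came from separate animals. A p below thus speaks of the spread among libraries alone, which may be technical. In the main edgeR fit that spread is estimated over all 16 libraries, those of DZ cells included.

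CD40 is a receptor of the TNF receptor superfamily on B cells, and its ligand is displayed by follicular helper T cells. In the germinal centre, LZ cells capture antigen, present it to these T cells and receive CD40 signals in return, whereas DZ cells divide and mutate their antibody genes. CD40 has no enzyme activity of its own. It recruits TRAF adaptors and the ubiquitin ligases cIAP1 and cIAP2, which lead to activation of the canonical NF-kB pathway through degradation of IkB proteins and of the non-canonical pathway through processing of p100. The growth-promoting transcription factor Myc is induced in the LZ cells that receive help, and the title of the series concerns Myc in this choice.

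The LZ libraries held between 527241 and 914975 UMI and between 8718 and 9305 detected genes. A single UMI stood for 1.09 to 1.90 CPM, CPM being UMI scaled in the usual way to a common library total. Values of single genes below are CPM scaled by TMM factors, given for libraries 1 to 4 in that order. Sums over marker lists and ratios of summed UMI are scaled to the library total alone, without TMM factors. Fold changes are log2 estimates from edgeR with its quasi-likelihood test and Benjamini-Hochberg adjustment over all genes tested. Isotype library 4 stood apart from the other isotype libraries, whose counts differed from each of theirs by 7.86 to 10.1 chi-square units per degree of freedom, against 2.19 to 4.17 among the other 3. On component 2 of a principal component analysis of all 16 libraries, the library numbered 4 was the lowest of its group in all 4 groups, at -36.9, -42.3, -11.2 and -34.7 for isotype and anti-CD40 LZ and isotype and anti-CD40 DZ. Results that depended on isotype library 4 are marked, and counts without the libraries numbered 4 are given. Of 17 germinal centre B cell markers, 16 were in the table analysed and at least 15 had a UMI in each LZ library, with a summed level of 8400 to 11000 CPM under isotype and 7260 to 8370 CPM under anti-CD40. Of 19 T cell markers 3 were in the table (Lck, Cd2 and Tcf7), and their sum was 189 to 258 CPM under isotype and 81.5 to 116 CPM under anti-CD40. The myeloid and dendritic list had 4 of 21 members in the table, at 353 to 382 and 179 to 240 CPM, most of it Cst3, which B cells also express. Of the stromal and follicular dendritic list, 4 of 15 were in the table, at 107 to 278 and 49.5 to 91.8 CPM. Mfge8, a product of follicular dendritic cells, had 74 UMI in isotype library 1 and 2 to 7 in every other LZ library. None of 10 red cell and platelet markers was in the table. The part of these other cells in the results was not tested.

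Anti-CD40 changed 1302 of 6824 tested genes in LZ cells (19.1%), of which 740 were higher (10.8%) and 562 lower (8.24%). Those 2 shares are the background for every count of list members below, also where they are not repeated. At least a 2-fold change was estimated for 429 of the higher and 319 of the lower genes, and at least a 4-fold change for 60 and 36. The higher genes together made up 8.29 to 9.20% of the UMI in isotype libraries and 14.8 to 17.9% in anti-CD40 libraries. The lower genes went from 7.58 to 8.84% down to 3.64 to 4.38%. As the genes were chosen on these libraries, those shares describe their abundance and are no test. Calls of a rise became more frequent with abundance, from 3.11% in the lowest to 19.7% in the highest of 4 equal groups of genes ordered by mean CPM, while calls of a fall stayed between 6.74 and 9.20% in all 4 groups. Upper quartile scaling, which moves the median of all genes to -0.10 on the log2 scale, turned the split into 596 higher and 758 lower genes. Without the libraries numbered 4, 685 genes were higher and 503 lower. Without anti-CD40 library 2, 488 were higher and 388 lower.

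**Figure D1:**
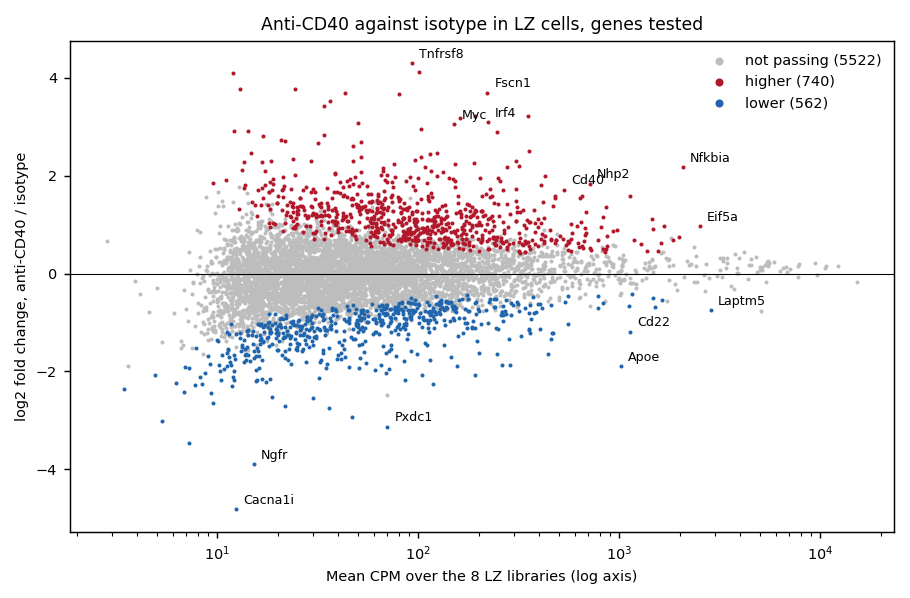
Each point is 1 of 6824 tested genes, with its mean CPM over the 8 LZ libraries on a log axis and its log2 fold change, anti-CD40 over isotype. The 740 higher genes are red, the 562 lower genes blue and the rest grey, and Cacna1i, Ngfr and Pxdc1 lie lowest among the genes labelled.

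Next to the receptor, the inhibitor gene Tnfaip3 and the cIAP genes Birc2 and Birc3 were among the higher genes. Of 23 tested adaptors and ubiquitin enzymes that act next to CD40, 5 were higher and 2 lower, beside 10.8 and 8.24% of all genes. The list median was 0.08, and its sign turned under upper quartile scaling. Tnfaip3, which encodes the ubiquitin-editing enzyme A20 that shuts NF-kB signalling down, read 25.5, 25.5, 33.6 and 21.2 CPM under isotype and 117, 115, 149 and 116 CPM under anti-CD40. All 4 anti-CD40 libraries lay far above the isotype libraries (log2 fold change 2.23, SE 0.27, adjusted p = 1.95e-05). Ikbke, an IkB kinase relative, was 18.8, 9.55, 20.5 and 17.6 CPM under isotype and 65.7, 101, 66.5 and 114 CPM under anti-CD40 (2.37, SE 0.40, adjusted p = 4.38e-04). The cIAP genes Birc2 and Birc3 rose by 1.28 and 2.25 on the log2 scale (edgeR adjusted p = 0.00427 and 1.61e-06), and Tank, a TRAF-binding adaptor, by 1.56 (adjusted p = 0.00429). Traf5, a TRAF adaptor, went from 103 ± 12.3 to 62.0 ± 20.7 CPM (mean ± SD, n = 4; -0.74, adjusted p = 0.0136). The other lower gene was Sharpin, a subunit of the linear ubiquitin ligase, at -0.51 (adjusted p = 0.0212), named after its value was seen, and its call was lost without anti-CD40 library 4 (adjusted p = 0.0762). Cd40 itself had 261, 259, 235 and 236 CPM under isotype and 829, 852, 724 and 844 CPM under anti-CD40, a narrow spread in both groups (1.71, SE 0.13, adjusted p = 2.71e-07). In an exact two-sided permutation test over 70 arrangements of the 8 libraries, Cd40 and Myc each gave p = 0.0286, which is also the value after adjustment for both and the smallest that 4 against 4 allows.

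The NF-kB and IkB family rose almost as a whole: 9 of 11 tested members were higher and none was lower, with a median log2 fold change of 1.41 against 0.01 over all genes. Nfkbia, which encodes IkBa and is itself an NF-kB target, stood at 795, 834, 723 and 654 CPM under isotype and 3218, 3925, 3468 and 2973 CPM under anti-CD40. It gained more CPM than any other gene that the naming rule could reach. Nfkbid, which encodes the nuclear IkB protein IkBNS, read 53.7, 71.6, 72.7 and 81.1 and 210.1, 243, 285 and 204 CPM in the same order of groups (1.76, SE 0.19, adjusted p = 6.52e-06). The cytoplasmic inhibitors Nfkbib and Nfkbie rose by 1.41 and 1.43 (adjusted p = 3.08e-05 and 6.20e-05). On the side of the subunits, Nfkb2, which encodes p100, went from 182 ± 63.4 to 635 ± 173 CPM and its partner Relb from 112 ± 20.6 to 249 ± 39.6 CPM (mean ± SD, n = 4; edgeR adjusted p = 5.96e-05 and 0.00103). Both groups of libraries were separate for 9 of the 11 members, where 20.5% of all tested genes did not overlap. Bcl3, a nuclear IkB protein, rose by 0.73 in LZ cells and by 2.05 in DZ cells. It was named after its values were seen, its call in LZ cells was lost without isotype library 1, 2 or 3 or anti-CD40 library 2 or 3 (adjusted p up to 0.106), and the difference had an unadjusted p of 4.17e-04 and an edgeR adjusted p of 0.202.

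Promoter sequences of the inhibitor genes Nfkbia and Tnfaip3 and of the p100 gene are shown because these hold a NF-kB motif close to the start site. No promoter listed for Nfkbib, Nfkbie or Nfkbid held it. The 250 bases before the start come from RefSeq (GRCm38.p6), written 5′ to 3′ on the gene's strand. Capitals mark the kappaB motif (GGG, any 2 bases, then TTTCC) on either strand and the E-box CACGTG.
Nfkbia: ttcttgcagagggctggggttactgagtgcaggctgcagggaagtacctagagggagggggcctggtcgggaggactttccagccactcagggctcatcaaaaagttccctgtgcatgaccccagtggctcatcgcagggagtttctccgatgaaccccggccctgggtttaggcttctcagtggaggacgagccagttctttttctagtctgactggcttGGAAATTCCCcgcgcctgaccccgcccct
Tnfaip3: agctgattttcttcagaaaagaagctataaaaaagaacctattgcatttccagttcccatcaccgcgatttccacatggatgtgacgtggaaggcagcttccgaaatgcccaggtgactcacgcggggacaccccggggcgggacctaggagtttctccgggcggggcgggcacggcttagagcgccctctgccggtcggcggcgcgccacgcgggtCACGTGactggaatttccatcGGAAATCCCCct
Nfkb2: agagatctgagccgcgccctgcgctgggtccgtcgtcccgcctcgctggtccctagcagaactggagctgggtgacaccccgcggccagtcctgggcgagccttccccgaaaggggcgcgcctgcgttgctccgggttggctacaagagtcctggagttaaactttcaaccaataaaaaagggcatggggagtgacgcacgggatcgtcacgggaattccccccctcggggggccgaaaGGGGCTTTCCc
The Nfkbia stretch is chr12:55492648-55492897 on the minus strand, with the motif starting 29 bases before the start site. In Tnfaip3 (chr10:19015411-19015660, minus strand), whose other listed start site has no match, the kappaB motif starts 12 bases and an E-box 33 bases before it, and the motifs do not overlap. In Nfkb2 (chr19:46304487-46304736, plus strand), for which the first of 3 listed start sites is shown, the distance was 11 bases. Over windows reaching 50 bases past the start, the kappaB motif was found in 5 of 12 promoters of the NF-kB and IkB list and in 7 of 26 of the CD40-proximal list, against 118 of 7099 promoters of tested genes (1.66%). A gene can have several overlapping windows, and counted by gene the motif was in 3 of 8, 6 of 19 and 112 of 5596. Among all higher genes the share of promoters was 2.15% and among lower genes 0.828%. The counts for the lists take all tested members, called or not. Of the called CD40-proximal genes with a promoter, Tnfaip3 and Tank held the motif, and Birc2, Birc3, Ikbke and Traf5 did not. Promoters were matched for 5596 of 6824 tested genes. A match is a run of letters and not a measured binding site.

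The TNF superfamily held some of the largest changes in both directions. Of 11 tested members besides Cd40, 3 rose (27.3%), 2 fell (18.2%) and 6 did not pass (median 0.32), beside 10.8 and 8.24% of all genes. Tnfrsf8, which encodes CD30, read 12.1, 6.37, 7.46 and 8.82 CPM under isotype and 60.9, 233, 83.4 and 332 CPM under anti-CD40, the largest rise by fold among the genes named by rule (4.30, SE 0.61, adjusted p = 7.19e-05). Its anti-CD40 libraries fell into a lower pair, 1 and 3, and a higher pair, 2 and 4, all above isotype. Cd70, the ligand of CD27, read 8.06, 6.37, 5.59 and 1.76 and 41.7, 77.3, 25.9 and 123 CPM, again with libraries 2 and 4 above 1 and 3 (3.53, adjusted p = 2.82e-04). Tnfsf9, the ligand of 4-1BB, was more even, at 36.3, 39.8, 22.4 and 28.2 and 234, 389.5, 258 and 282 CPM (3.18, adjusted p = 3.05e-06). In the other direction, Ngfr, the low-affinity neurotrophin receptor p75, went from 36.3, 27.1, 24.2 and 26.5 CPM to 3.21, 1.58, 2.25 and 0 CPM. Its anti-CD40 level rests on 5 UMI over 4 libraries (-3.89, SE 0.51, adjusted p = 3.70e-05). Tnfrsf13b, which encodes the BAFF and APRIL receptor TACI, fell by 0.72 (adjusted p = 0.0318), a call lost without isotype library 4 or anti-CD40 library 1, 2 or 3 (adjusted p up to 0.131). The BAFF receptor gene Tnfrsf13c did not pass, at 889 ± 168 and 1110.3 ± 160.0 CPM.

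Molecules of the contact with T cells rose in part, 7 of 19 higher and 2 lower (36.8 and 10.5%, beside 10.8 and 8.24% of all genes). Icam1, the ligand of the integrin LFA-1, had 129, 137, 160.3 and 138 CPM under isotype and 428, 615, 487 and 345 CPM under anti-CD40 (1.74, SE 0.19, adjusted p = 6.37e-06). Cd44, a receptor for hyaluronan, went from 27.8 ± 11.5 to 112 ± 22.2 CPM, and the SLAM family genes Ly9 and Slamf7 from 172 ± 20.6 to 400.0 ± 95.7 and from 13.8 ± 5.56 to 45.7 ± 5.36 CPM (mean ± SD, n = 4; edgeR adjusted p = 2.19e-04, 9.05e-04 and 0.00367). Cd83, a surface marker of the LZ, rose by 1.15 (adjusted p = 0.0096). The integrin chain gene Itgb7 moved the other way, 26.9, 19.1, 24.2 and 33.5 against 4.81, 4.73, 11.3 and 4.75 CPM, with no overlap between groups (-1.93, SE 0.39, adjusted p = 0.00208). The beta chain of LFA-1, Itgb2, was also lower, at -0.60, and is named after its value was seen. Its call was lost without isotype library 1, 2 or 3 or anti-CD40 library 1, 2 or 4 (adjusted p up to 0.128).

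Of 16 tested cytokine and cytokine receptor genes 6 were higher (37.5%, beside 10.8% of all genes) and none was lower. In DESeq2 and without isotype library 1, 1 was lower. The higher ones included the shared gamma chain Il2rg (0.65, adjusted p = 0.0253) and Il21r, a receptor chain for the T cell cytokine IL-21 (0.47, adjusted p = 0.0357). The interferon receptor chains Ifnar2 and Ifngr2 rose by 1.36 and 0.82 (adjusted p = 0.00756 and 0.00985). The call of Il2rg was lost without isotype library 1 or 3 or anti-CD40 library 1 or 2 (adjusted p up to 0.105), and that of Il21r without isotype library 1, 2 or 3 or anti-CD40 library 1, 2 or 4 (adjusted p up to 0.119). Il1r2, a decoy receptor for interleukin 1, read 1.34, 1.59, 3.73 and 0 CPM under isotype, from 4 UMI in all, and 24.1, 39.4, 15.8 and 17.4 CPM under anti-CD40 (3.76, adjusted p = 3.12e-04). Downstream of such receptors, the kinase gene Pim1 had 138, 156, 194 and 199 CPM under isotype and 537, 874, 645 and 689 CPM under anti-CD40 (2.0, SE 0.20, adjusted p = 2.56e-06), and Pim3 rose by 1.67 (adjusted p = 0.00125). Stat6, the factor activated by IL-4, rose by 0.94 (adjusted p = 0.00234).

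Rises among regulators of cell death included survival and pro-death genes. Of 19 tested, 6 were higher and 3 lower (31.6 and 15.8%, beside 10.8 and 8.24% of all genes). Bcl2l1, the gene of the survival protein Bcl-xL, read 32.2, 30.2, 54.1 and 33.5 CPM under isotype and 239, 501, 237 and 407 CPM under anti-CD40 (3.21, SE 0.37, adjusted p = 1.19e-05). The A1 survival genes Bcl2a1b and Bcl2a1d went from 58.3 ± 21.7 to 433 ± 138 and from 5.62 ± 1.80 to 62.4 ± 27.1 CPM (mean ± SD, n = 4). They are near-identical copies, so that the split of reads between them is uncertain. Cflar, which encodes the caspase-8 inhibitor c-FLIP, rose by 0.91 (adjusted p = 0.0118). So did the pro-death genes Bid, by 0.89, and Bax, by 0.70 (adjusted p = 7.20e-04 and 0.0131). The calls of Cflar and Bax were each lost without anti-CD40 library 2 (adjusted p = 0.0686 and 0.0644). The lower genes included Mcl1 at -0.51 and Bad at -0.64, named after their values were seen, and 1 in place of 3 passed when isotype library 4, or anti-CD40 library 2, 3 or 4, was left out. Mcl1 was lost without isotype library 3 or 4 or anti-CD40 library 1, 2 or 3 (adjusted p up to 0.151) and Bad without isotype library 2, 3 or 4 or anti-CD40 library 2, 3 or 4 (adjusted p up to 0.14).

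Myc had 21.5, 46.2, 41.0 and 21.2 CPM in the isotype libraries and 224, 353, 255 and 242 CPM in the anti-CD40 libraries, all of the latter at least 4.86 times the highest isotype value (3.05, SE 0.30, adjusted p = 2.23e-06). Of 7 tested members of the Max network, Myc was the higher one and 2 were lower, both from the Mxd family, which competes with Myc for Max. Mxd4 read 25.5, 35.0, 39.2 and 28.2 CPM under isotype and 6.41, 3.15, 6.76 and 4.75 CPM under anti-CD40, and Mxd3 77.9, 102, 61.5 and 104 and 17.6, 20.5, 31.6 and 25.3 CPM. In both, every anti-CD40 library lay below every isotype library (-2.53 and -1.84, adjusted p = 5.56e-05 and 3.67e-04). Mlxip, Mnt and Mlx did not pass, at -0.27, -0.18 and 0.09.

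Genes that build ribosomes in the nucleolus rose in most cases: 58 of 74 tested members were higher, none was lower, and all 74 estimates were above 0, with a median of 1.27. Nle1, a factor of large subunit maturation, had 26.9, 31.8, 41.0 and 28.2 CPM under isotype and 127, 175, 126 and 214 CPM under anti-CD40 (2.33, SE 0.26, adjusted p = 7.54e-06). Rrp9, a component of the U3 small nucleolar particle, read 63.2, 43.0, 35.4 and 54.7 and 172, 192, 153 and 272 CPM (1.99, SE 0.25, adjusted p = 2.99e-05). Mrto4 and Nop16, both factors of large subunit assembly, rose by 1.62 and 1.73 (adjusted p = 2.05e-05 and 3.57e-05). Per library, the median member stood 1.09, 1.44, 1.14 and 1.24 above the isotype mean on the log2 scale in anti-CD40 libraries 1 to 4, a range narrower than the rise itself. The host genes of small nucleolar RNAs rose with them, 9 of 14 higher and none lower (median 1.19). Snhg15 read 114, 127, 74.6 and 109 CPM under isotype and 507, 626, 506 and 788 CPM under anti-CD40 (2.51, adjusted p = 9.35e-07), and Snhg12 and Snhg16 rose by 1.59 and 1.96. Of 22 subunits and factors of RNA polymerases I and III, 8 were higher and none lower, with 5 higher without isotype library 3 and 4 without anti-CD40 library 2. Cd3eap and Polr1b of polymerase I rose by 1.89 and 1.65, and Polr3d of polymerase III by 2.04 (edgeR adjusted p = 1.75e-05, 0.0021 and 1.52e-04).

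The E-box CACGTG, the sequence that Myc and Max are known to bind, lay in 17 of 65 promoters of the nucleolar list (26.2%) and in 777 of 7099 promoters of all tested genes (10.9%). It was in 17.9% of the promoters of higher genes and 8.11% of those of lower genes. Of the other lists scanned, the E-box lay in 4 of 18 tRNA synthetase, 5 of 26 nucleotide synthesis and 2 of 13 snoRNA host promoters. It lay in 2 of 26 CD40-proximal promoters, and in 0 of 11 one-carbon, 0 of 12 LZ marker and 0 of 12 NF-kB and IkB promoters. A pair of higher nucleolar genes is shown with the motif in capitals, from the same RefSeq table.
Nop2: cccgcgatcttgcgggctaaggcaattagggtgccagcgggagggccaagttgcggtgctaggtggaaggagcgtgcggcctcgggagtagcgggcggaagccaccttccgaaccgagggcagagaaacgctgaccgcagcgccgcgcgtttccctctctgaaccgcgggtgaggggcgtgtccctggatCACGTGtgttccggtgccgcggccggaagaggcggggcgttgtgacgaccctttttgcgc
Imp4: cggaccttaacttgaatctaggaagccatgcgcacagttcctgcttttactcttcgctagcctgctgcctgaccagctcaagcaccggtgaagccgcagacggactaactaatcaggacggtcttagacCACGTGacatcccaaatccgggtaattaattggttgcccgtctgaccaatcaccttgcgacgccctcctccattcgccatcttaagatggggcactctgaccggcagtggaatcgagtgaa
Nop2 (chr6:125131633-125131882, plus strand) encodes an rRNA methyltransferase, and the motif starts 60 bases before its start site. Its levels were 69.9, 63.7, 52.2 and 59.96 CPM under isotype and 154, 241, 196 and 348 CPM under anti-CD40 (1.93, adjusted p = 6.03e-05). In Imp4 (chr1:34439579-34439828, plus strand), a U3 particle component, the motif starts 121 bases before the site. Imp4 read 76.6, 107, 76.4 and 63.5 and 160.3, 221, 170.2 and 159.9 CPM (1.13, adjusted p = 4.09e-04). Nop2 and Imp4 were chosen for their motif among genes already called. The Mxd4 promoter, of a gene that fell, also holds an E-box, 219 bases before the start.

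Few cytosolic ribosomal protein genes passed in the main fit. Of 77 tested, 67 estimates were above 0, with a median of 0.16 against 0.01 over all genes. With the library number as a block over all 16 libraries 10 were higher, and in the main fit 1 was higher and none lower. The higher one was Rpl10a, at 992, 1151, 1316 and 1148 CPM under isotype and 1399.8, 1493, 1552 and 1892 CPM under anti-CD40 (0.46, SE 0.14, adjusted p = 0.0238), a call lost without isotype library 1 or 2 or anti-CD40 library 2 or 4 (adjusted p up to 0.125). Rps2 and Rpl12 did not pass, at 0.45 and 0.29. Mitochondrial ribosomal proteins were higher in 16 of 65 cases (24.6%, beside 10.8% of all genes) and lower in none. That count was 9 or 10 without isotype library 1 or 3, or without anti-CD40 library 1, 2 or 4. Mrpl12 went from 251 ± 29.7 to 512 ± 56.6 CPM and Mrps6 from 28.3 ± 10.1 to 87.4 ± 19.0 CPM (mean ± SD, n = 4; adjusted p = 1.07e-04 and 0.00121). Aminoacyl tRNA synthetases and their scaffold proteins, which charge tRNA with amino acids, were higher in 14 of 24 cases and lower in none. There, 8 passed without isotype library 3 and 6 without anti-CD40 library 2. Tars, for threonine, read 112, 93.9, 112 and 166 CPM under isotype and 242, 320.1, 209.7 and 405 CPM under anti-CD40 (1.28, adjusted p = 0.00138), and the scaffold genes Eef1e1 and Aimp2 rose by 1.86 and 1.17. Among 55 translation factors, 13 were higher and 2 lower, the latter being Eif2ak3, which encodes the kinase PERK, and Eif2d, named after their values were seen (-0.91 and -0.64). Those calls were lost without isotype library 2, 3 or 4 or anti-CD40 library 1, 2 or 4 (adjusted p up to 0.124), and without isotype library 4 or anti-CD40 library 1 or 3 (adjusted p up to 0.0664). The helicase gene Eif4a1 rose from 423 ± 75.6 to 869.8 ± 95.7 CPM and Eif3g from 379 ± 76.9 to 765 ± 128 CPM (mean ± SD, n = 4; adjusted p = 1.89e-04 and 0.00119). Folding helpers were higher in 10 of 25 cases and lower in none, among them the chaperonin subunits Cct3 (1.13) and Cct6a (1.26), with adjusted p = 3.62e-05 and 9.78e-05.

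**Figure D2:**
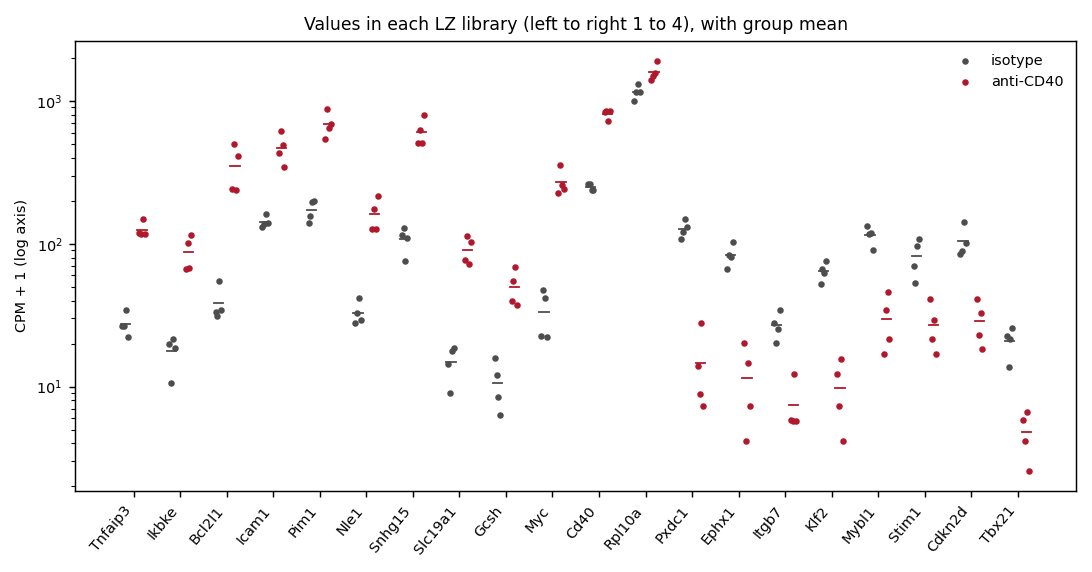
Values of 20 genes in each of the 8 LZ libraries, as CPM plus 1 on a log axis, with isotype in grey, anti-CD40 in red, libraries 1 to 4 from left to right and a bar at the group mean. Rises from Tnfaip3 to Cd40 show no overlap, Rpl10a shifts little, and the genes from Pxdc1 to Tbx21 are lower in every anti-CD40 library.

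Serine and one-carbon enzymes, which supply building blocks for nucleotides, were higher in 7 of 10 cases and lower in none (median 0.95). Gcsh, a subunit of the glycine cleavage system, read 14.8, 11.1, 7.46 and 5.29 CPM under isotype and 38.5, 53.6, 67.6 and 36.4 CPM under anti-CD40 (2.30, SE 0.45, adjusted p = 0.0014). The serine hydroxymethyltransferase of the cytosol, Shmt1, went from 22.7 ± 8.20 to 82.5 ± 10.9 CPM, and the folate enzyme Mthfd2 from 102 ± 13.3 to 226 ± 75.2 CPM (mean ± SD, n = 4; adjusted p = 1.44e-04 and 0.00302). Purine and pyrimidine enzymes were higher in 12 of 26 cases. Impdh2, the committed step to guanine nucleotides, had 148, 105, 147 and 119.9 CPM under isotype and 313, 278, 254 and 353 CPM under anti-CD40 (1.20, adjusted p = 4.07e-05). Aprt, an enzyme of adenine salvage, and Dctpp1, which cleans the nucleotide pool, rose by 1.26 and 1.30, and the close copies Nme1 and Nme2 by 0.89 and 0.87. The single lower gene was Tk1, the thymidine kinase of dividing cells, at 189, 197, 227 and 215 and 120.3, 115, 101 and 103 CPM (-0.91, SE 0.17, adjusted p = 7.41e-04).

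Transporters changed one by one. Of 91 tested solute carriers 16 were higher and 8 lower, with 11 and 3 without the libraries numbered 4, 10 higher without anti-CD40 library 4, and 4, 2 and 3 lower without isotype library 4 and anti-CD40 libraries 2 and 4. In the main fit 17.6% were higher and 8.79% lower, beside 10.8 and 8.24% of all genes. The list median was close to that of all genes, and its sign turned under upper quartile scaling. Slc19a1, the reduced folate carrier, read 13.4, 7.96, 16.8 and 17.6 CPM under isotype and 75.4, 112, 71.0 and 101 CPM under anti-CD40 (2.69, SE 0.35, adjusted p = 3.62e-05). Slc7a5, the large neutral amino acid transporter, read 30.9, 39.8, 52.2 and 52.9 and 86.6, 222, 96.9 and 342 CPM, again with anti-CD40 libraries 2 and 4 above 1 and 3 (2.09, adjusted p = 0.00349). The nucleoside transporter Slc29a2 had 3 UMI over the isotype libraries and 62 over the anti-CD40 libraries, a CPM ratio of 17.1 (5.57 to 85.0, exact 95% interval for counting error only). Another nucleoside carrier, Slc28a2, fell by 1.10 (adjusted p = 0.0016).

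In glycolysis 2 of 12 genes were higher (16.7%, beside 10.8% of all genes), Ldha and the regulator Pfkfb3. Pfkfb3 rose by 1.42 (adjusted p = 0.02), a call lost without anti-CD40 library 2 (adjusted p = 0.0901). Gapdh did not pass and is set by 1 library, with 13.4, 22.3, 14.9 and 422 CPM under isotype and 25.7, 31.5, 11.3 and 15.8 CPM under anti-CD40. The respiratory chain list had 3 higher of 69, below the 10.8% of all genes: Cox5a, Atp5g3 and Atp5g1 (0.93, 0.60 and 0.68). It gave 1 without isotype library 1 or 3 or anti-CD40 library 1, 2 or 4, and 6 without anti-CD40 library 3. Atp5g3 was lost without isotype library 1, 3 or 4 or anti-CD40 library 1, 2 or 4 (adjusted p up to 0.0871) and Atp5g1 without isotype library 1, 2 or 3 or anti-CD40 library 1, 2 or 4 (adjusted p up to 0.19), and the sign of the list median turned under upper quartile scaling. For cholesterol, 4 of 21 genes were higher and 1 lower (19.0 and 4.76%, beside 10.8 and 8.24% of all genes), and 16 did not pass. The synthesis enzymes Hmgcs1 and Fdps rose by 1.14 and 0.94 (adjusted p = 0.0058 and 0.00362). Srm, the spermidine synthase, Eif5a, the protein that carries hypusine, and Mat2a, which makes the methyl donor S-adenosylmethionine, were the 3 higher genes of 13 in the polyamine list (2.20, 0.97 and 0.89). These 3 made up 23.1% of the list, beside 10.8% of all genes. Mat2a was lost without isotype library 1 or 3 or anti-CD40 library 2 (adjusted p up to 0.0578).

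In the main fit, markers of the dark zone fell more often than they missed the threshold, a majority lost when some single libraries were left out. Of 14 DZ markers 9 fell (64.3%, beside 8.24% of all genes), none rose and all 14 estimates were below 0 (median -0.79). Without isotype library 4, 6 of the 14 fell, and 7 fell without isotype library 3 or anti-CD40 library 1 or 2. Of 15 germinal centre B cell markers 6 fell, 1 rose and 8 did not pass. Of 18 LZ markers 14 rose and 1 fell (median 1.72). Of the naive and follicular B cell list, 10 of 14 were in the table, and their sum was 754 to 986 CPM under isotype and 1630 to 1770 CPM under anti-CD40. Most of that sum was Fcer2a, the gene of CD23, which is also on the LZ list. Scaled by TMM factors, unlike the sum, Fcer2a went from 563 ± 49.3 to 1692 ± 44.0 CPM (mean ± SD, n = 4, edgeR adjusted p = 9.15e-07). Of the 5 tested members of the naive and follicular list 1 was higher and 2 lower, Klf2 and Bach2 described below, with a median of -0.57. What part such cells have in the results was not tested. In bulk samples, fewer cells of a type and less RNA per cell cannot be told apart. Mybl1, a transcription factor of germinal centre B cells, went from 132, 116, 117 and 89.9 CPM to 16.03, 33.1, 45.1 and 20.6 CPM without overlap (-1.95, adjusted p = 3.69e-04). Gcsam, a germinal centre signalling protein, fell by 1.62 and Foxo1, a factor of the DZ program, by 0.76 (adjusted p = 0.00197 and 0.00606). The single higher germinal centre marker was Basp1, a membrane protein, at 1267 ± 107 and 1962 ± 349 CPM (mean ± SD, n = 4; 0.63, adjusted p = 0.0101), lost without anti-CD40 library 2 (adjusted p = 0.062). The lower LZ marker was Egr1, an immediate early factor (-0.79, adjusted p = 0.042), lost without isotype library 1 or 3 or anti-CD40 library 1 or 4 (adjusted p up to 0.132).

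Receptors that place cells within the follicle changed in both directions, 3 of 15 higher and 5 lower. S1pr2, the sphingosine phosphate receptor that holds germinal centre B cells in the follicle, read 396, 454, 494 and 455 CPM under isotype and 157, 110.4, 149 and 74.4 CPM under anti-CD40 (-1.87, SE 0.19, adjusted p = 3.14e-06). Efnb1, an ephrin that germinal centre B cells use in contacts with T cells, read 164, 191, 224 and 209.9 and 36.9, 34.7, 45.1 and 45.9 CPM (-2.27, SE 0.19, adjusted p = 5.07e-07). S1pr4 fell by 1.84 (adjusted p = 2.29e-04). The chemokine receptors Cxcr4, which draws cells into the DZ, and Cxcr3 were lower as well, at -1.76 and -2.26 (adjusted p = 0.0162 and 0.0154), and are named after their values were seen. Cxcr4 was high in isotype library 4 alone, at 106, 90.7, 123 and 388 CPM under isotype and 30.5, 56.8, 46.2 and 74.4 CPM under anti-CD40, and its change was -1.04 without that library (adjusted p = 0.0928) and missed the threshold without anti-CD40 library 1 too (adjusted p = 0.0522). For Cxcr3 the estimate was -3.03 without anti-CD40 library 3. Cxcr5, the receptor for the follicular chemokine, rose from 299.6 ± 17.2 to 523 ± 29.1 CPM, and the semaphorin gene Sema7a and the sphingosine phosphate receptor gene S1pr3 rose by 0.77 and 0.80 (adjusted p = 6.82e-04, 0.0014 and 0.00886).

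Of 31 tested components of antigen receptor signalling 6 fell and 1 rose (19.4 and 3.23%, beside 8.24 and 10.8% of all genes). Of 12 inhibitory receptors and phosphatases 4 fell (33.3%) and none rose. Of the B cell receptor list 3 fell without anti-CD40 library 2, and 3 without the libraries numbered 4. Dok3, an adaptor that restrains the receptor, had 521, 594, 625 and 949 CPM under isotype and 219.7, 162, 242 and 234 CPM under anti-CD40 (-1.64, SE 0.21, adjusted p = 2.99e-05). Stim1, the calcium sensor that opens store-operated channels, read 68.5, 52.5, 95.1 and 108 and 40.1, 20.5, 28.2 and 15.8 CPM (-1.61, SE 0.30, adjusted p = 9.06e-04). Prkcd, a protein kinase C, was the higher gene (0.69, adjusted p = 0.0117), lost without isotype library 3 or anti-CD40 library 4 (adjusted p up to 0.0549). Among inhibitory receptors Cd22 went from 1575 ± 115 to 692 ± 56.3 CPM, Siglecg from 554 ± 28.3 to 251 ± 83.1 CPM and Pecam1, an adhesion receptor with an inhibitory tail, from 71.2 ± 21.2 to 19.0 ± 2.72 CPM (mean ± SD, n = 4; adjusted p = 2.99e-05, 2.45e-04 and 1.78e-04). The mTORC1 inhibitor gene Ddit4 read 73.9, 84.3, 80.2 and 77.6 CPM under isotype and 12.8, 36.3, 23.7 and 22.2 CPM under anti-CD40 (-1.73, adjusted p = 5.27e-04), and the lipid kinase subunit Pik3cg fell by 1.15 (adjusted p = 0.00317).

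Calls among cell cycle genes were more often falls than rises, and most members did not pass. Of 39 mitotic genes 11 fell (28.2%, beside 8.24% of all genes), none rose and 37 estimates were below 0. Those 11 became 6 without anti-CD40 library 1, 5 without anti-CD40 library 2 and 7 without the libraries numbered 4. Ckap2l, a spindle protein, read 28.2, 36.6, 41.0 and 52.9 CPM under isotype and 19.2, 11.0, 24.8 and 14.2 CPM under anti-CD40 (-1.15, adjusted p = 0.00983). Its call was lost without the libraries numbered 4. Cenpa, the histone of the centromere, and Ncapd2, a condensin subunit, fell by 0.77 and 0.92 (adjusted p = 0.00336 and 0.00322). For DNA replication, 6 of 37 fell and 1 rose (16.2 and 2.7%, beside 8.24 and 10.8% of all genes), with 3 lower without anti-CD40 library 4. The largest fall there was of Rfc1, the large subunit of the clamp loader, from 198 ± 32.8 to 71.2 ± 12.7 CPM (mean ± SD, n = 4; -1.47, adjusted p = 9.02e-05), and the higher gene was the polymerase subunit Pold2 (0.83), lost without anti-CD40 library 2 (adjusted p = 0.0564). Of 24 cyclins, kinases and inhibitors 2 rose and 7 fell (8.33 and 29.2%), with 4 lower without isotype library 3 or anti-CD40 library 4. Ccnd2 read 13.4, 14.3, 9.32 and 8.82 CPM under isotype and 129.9, 226, 114 and 127 CPM under anti-CD40, whereas Ccnd3 went from 476, 388, 469.8 and 608 CPM to 239, 208, 203 and 241 CPM. Both shifts left no overlap (3.66 and -1.13, adjusted p = 4.05e-06 and 3.02e-04). Cdkn2d, an inhibitor of the kinases that D cyclins activate, fell by 1.87 and Cdk4, one of those kinases, rose by 0.71 (adjusted p = 5.94e-05 and 0.00461).

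Of 35 tested B cell transcription factors outside NF-kB, 25 did not pass and 14.3% passed in each direction, beside 10.8 and 8.24% of all genes. Runx3, a Runt domain factor, read 30.9, 22.3, 42.9 and 24.7 CPM under isotype and 77.0, 136, 89.0 and 139 CPM under anti-CD40 (1.87, SE 0.27, adjusted p = 9.78e-05), and Myb and the retinoic acid receptor gene Rara rose by 1.98 and 1.62 (adjusted p = 0.00224 and 7.23e-04). Tbx21, which encodes T-bet, went the other way from Runx3, 21.5, 12.7, 20.5 and 24.7 CPM under isotype and 4.81, 3.15, 5.64 and 1.58 CPM under anti-CD40 (-2.29, SE 0.43, adjusted p = 9.64e-04). Batf, a factor that pairs with Irf4, rose from 101 ± 33.6 to 396 ± 101 CPM and Irf4 from 46.2 ± 9.82 to 396 ± 73.8 CPM, while Bach2, a repressor of plasma cell fate, fell from 141 ± 52.96 to 66.0 ± 9.67 CPM (mean ± SD, n = 4; adjusted p = 4.30e-05, 3.01e-07 and 0.0132). Klf2, which maintains egress receptors in resting lymphocytes, had 51.1, 65.2, 61.5 and 74.1 CPM under isotype and 11.2, 6.31, 14.7 and 3.17 CPM under anti-CD40 (-2.75, SE 0.40, adjusted p = 9.60e-05).

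Of 27 chromatin regulators 19 did not pass and 14.8% passed in each direction, beside 10.8 and 8.24% of all genes. Kdm6b, an H3K27 demethylase, and Prmt5, an arginine methyltransferase, rose by 1.36 and 1.07, and Hdac5 and Kmt2a fell by 1.56 and 0.82 (adjusted p = 0.00155, 0.00304, 0.00366 and 0.00348). Among hypermutation and repair genes 1 of 24 rose and 3 fell (4.17 and 12.5%, beside 10.8 and 8.24% of all genes). Apex1, the endonuclease of base excision repair, read 106, 154, 145 and 59.96 CPM under isotype and 443, 453, 313 and 190.0 CPM under anti-CD40 (1.58, SE 0.32, adjusted p = 0.00179). The lower ones included Hmces, a shield of abasic sites, and the polymerase gene Rev1 (-1.87 and -0.79, adjusted p = 3.70e-05 and 0.0106). Without the libraries numbered 4, Rev1 missed the threshold (adjusted p = 0.0717). The long noncoding RNA Neat1 fell by 1.80 (adjusted p = 0.00367).

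Of 61 actin and small GTPase regulators 9 were higher and 9 lower (14.8% each, beside 10.8 and 8.24% of all genes), with 5 lower without anti-CD40 library 4. Fscn1, which bundles actin in cell protrusions, read 25.5, 27.1, 33.6 and 40.6 CPM under isotype and 184, 525, 152 and 777 CPM under anti-CD40, with libraries 2 and 4 the highest (3.70, SE 0.56, adjusted p = 1.52e-04). The capping protein regulator Carmil3 also read highest in libraries 4 and 2, at 6.72, 1.59, 0 and 15.9 and 54.5, 85.2, 67.6 and 114 CPM (3.69, or 4.63 without isotype library 4, adjusted p = 8.69e-05). Marcksl1, a regulator of actin at the membrane, rose by 1.54 and the myosin gene Myo1g by 1.26. Among the falls were the GTPase activating proteins Arhgap4 and Arhgap45 (-1.37 and -1.03, adjusted p = 4.38e-04 and 0.00181). Among 31 glycan enzymes 2 were higher and 3 lower (6.45 and 9.68%, beside 10.8 and 8.24% of all genes), and 26 did not pass. With 1 library left out in turn, 2 to 7 were lower. The sulfotransferase gene Chst15 was 30.9, 39.8, 65.3 and 68.8 CPM under isotype and 8.02, 7.88, 11.3 and 6.33 CPM under anti-CD40 (-2.54, adjusted p = 4.98e-05). B3gnt8, a glycosyltransferase gene, had 33 UMI over the isotype libraries and 3 over the anti-CD40 libraries, a CPM ratio of 13.3 (4.18 to 67.9, exact 95% interval for counting error only).

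Antigen presentation genes of class I were higher in 3 of 15 cases and lower in 1. H2-K1 went from 1481 ± 164 to 2469.8 ± 558 CPM, the proteasome activator Psme2 rose by 0.83 and the trimming peptidase Erap1 by 1.35, while H2-T23, a nonclassical molecule, fell by 0.78 (adjusted p = 0.00273, 5.65e-04, 0.0124 and 0.0105). Close relatedness among the H2 genes leaves the split of reads between them uncertain. Of 16 class II genes 1 was higher and 3 lower (6.25 and 18.8%), 12 estimates were below 0 and the median was -0.20. The lower ones were H2-Ob, H2-Oa and H2-DMb1, subunits of the proteins that regulate peptide loading (-1.02, -0.60 and -0.46, adjusted p = 0.0154, 0.037 and 0.0489). H2-Ob was lost without isotype library 2 or anti-CD40 library 4 (adjusted p up to 0.054), H2-Oa without isotype library 2 or 4 or anti-CD40 library 2 or 4 (adjusted p up to 0.127) and H2-DMb1 without isotype library 2, 3 or 4 or anti-CD40 library 1, 2, 3 or 4 (adjusted p up to 0.135). The higher one, Ifi30, a lysosomal thiol reductase that prepares antigen for class II, rose from 1001, 1267, 994 and 836 CPM to 2474, 1788, 1708 and 1714 CPM, all anti-CD40 libraries lying above isotype (0.91, adjusted p = 0.00228). Of 7 tested plasma cell genes Irf4 and Slamf7 were higher and Mzb1, a chaperone of antibody secretion, was lower (-0.67, adjusted p = 0.00105).

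**Figure D3:**
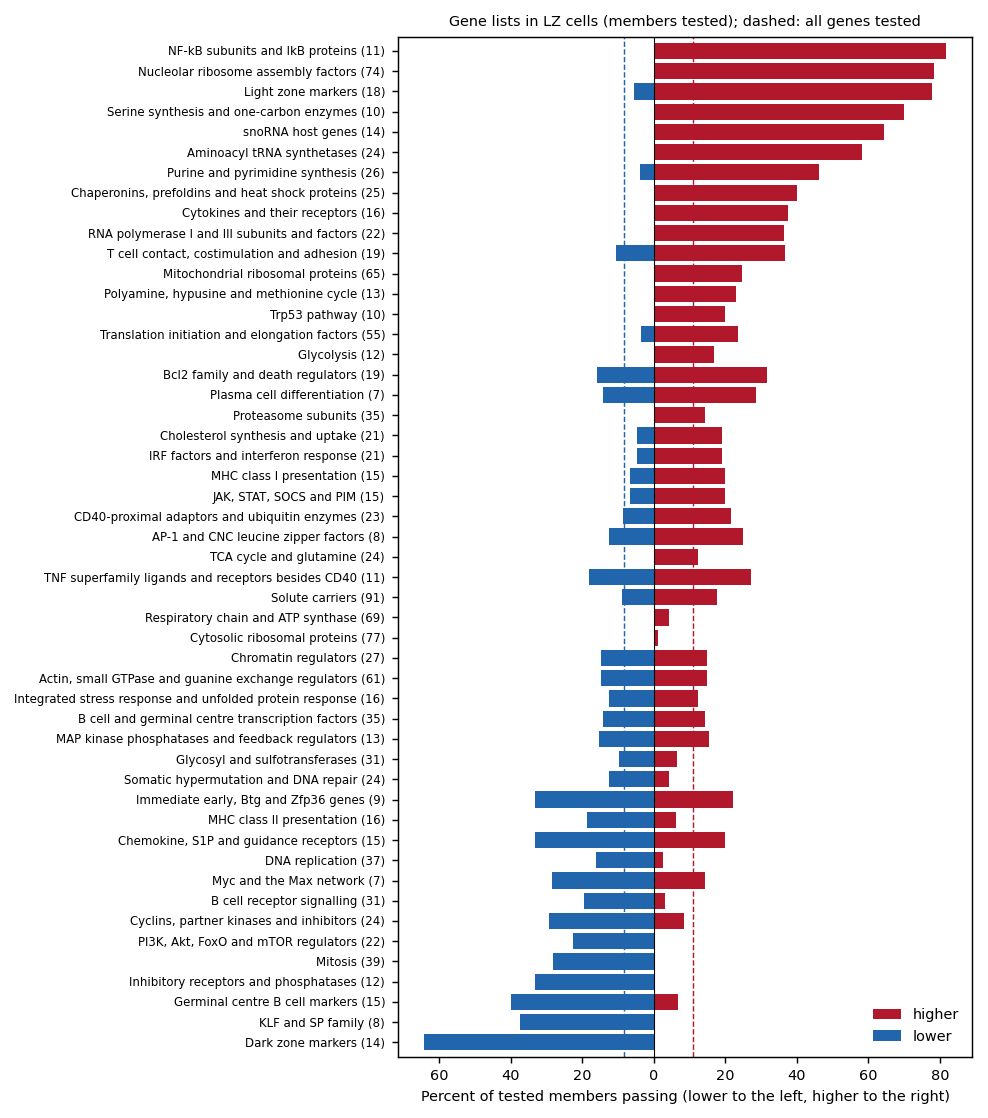
For each list with at least 7 tested members (number in brackets), the bars give the percent of members that passed as higher (right, red) and lower (left, blue). Dashed lines mark the 10.8 and 8.24% of all tested genes; NF-kB, nucleolar and LZ marker genes extend furthest to the right and DZ markers furthest to the left.

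The largest falls held genes of other functions. Cacna1i, which encodes a T-type calcium channel, had 19, 14, 10 and 17 UMI in the isotype libraries and 0, 0, 2 and 0 UMI in the anti-CD40 libraries. The CPM ratio was 36.3, isotype over anti-CD40, with an exact 95% interval of 9.63 to 307 for counting error only (-4.82, SE 0.57, adjusted p = 1.54e-05). Without anti-CD40 library 3, which holds both of its UMI, no UMI is left in the group. Pxdc1 had 107, 119, 147 and 131 CPM under isotype and 12.8, 7.88, 27.1 and 6.33 CPM under anti-CD40 (-3.13, SE 0.33, adjusted p = 3.94e-06), and the estimate was -3.78 without anti-CD40 library 3. Ephx1, an epoxide hydrolase, read 65.8, 82.8, 80.2 and 102 and 19.2, 3.15, 13.5 and 6.33 CPM (-2.93, SE 0.37, adjusted p = 2.71e-05). Those anti-CD40 libraries spread over a wide range, and the highest of them lay below the lowest isotype library. Serpinb1a, an inhibitor of serine proteases, fell by 2.72, and Pld4, an endolysosomal exonuclease, by 2.08 (adjusted p = 9.64e-04 and 2.99e-05). Cd2, listed as a T cell marker, fell from 111 ± 17.9 to 26.8 ± 8.91 CPM (mean ± SD, n = 4; -2.04, adjusted p = 2.18e-05), while Lck of the same list did not pass (-0.46). Apoe, an apolipoprotein, lost more CPM than any named gene but Laptm5, from 1688, 1545, 1555 and 1610.2 CPM to 637, 312, 500.5 and 264 CPM (-1.90, SE 0.22, adjusted p = 1.13e-05). Laptm5, a lysosomal membrane protein of blood cells, went from 3576 ± 1383 to 2121 ± 225 CPM (mean ± SD, n = 4; -0.75, adjusted p = 0.0262), lost without isotype library 4 or anti-CD40 library 1, 2 or 3 (adjusted p up to 0.115).

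The genes with the largest changes were not at the same level in all anti-CD40 libraries. They were chosen on these libraries, so that their order is a description. Among the 20 genes with the largest rises, library 4 was the highest of the 4 for 10 genes and library 2 for the other 10, and library 1 was the lowest for 9 and library 3 for 10. Among the 20 with the largest falls, library 4 was the lowest for 12 genes and library 2 for 7, while library 3 was the highest for 12 and library 1 for 6. The highest anti-CD40 library exceeded the lowest 1.40 to 5.46 times among the rises, with a median of 2.10, where the isotype libraries differed by a median of 1.78 times for the 14 of these genes with a UMI in all 4. Adgrg1, an adhesion receptor and one of the 20, read 27.3, 69.4, 23.7 and 63.3 CPM across the anti-CD40 libraries, and Tspan33, a tetraspanin of activated B cells, read 159, 268, 127 and 207 CPM. For Il1r2 and Snai1, a repressor of the epithelial program, the order was another, at 24.1, 39.4, 15.8 and 17.4 and 20.8, 12.6, 29.3 and 38.0 CPM. Total UMI were 709688, 675629, 914975 and 686911 in anti-CD40 libraries 1 to 4. Whether depth has a part in the order was not tested.

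**Figure D4:**
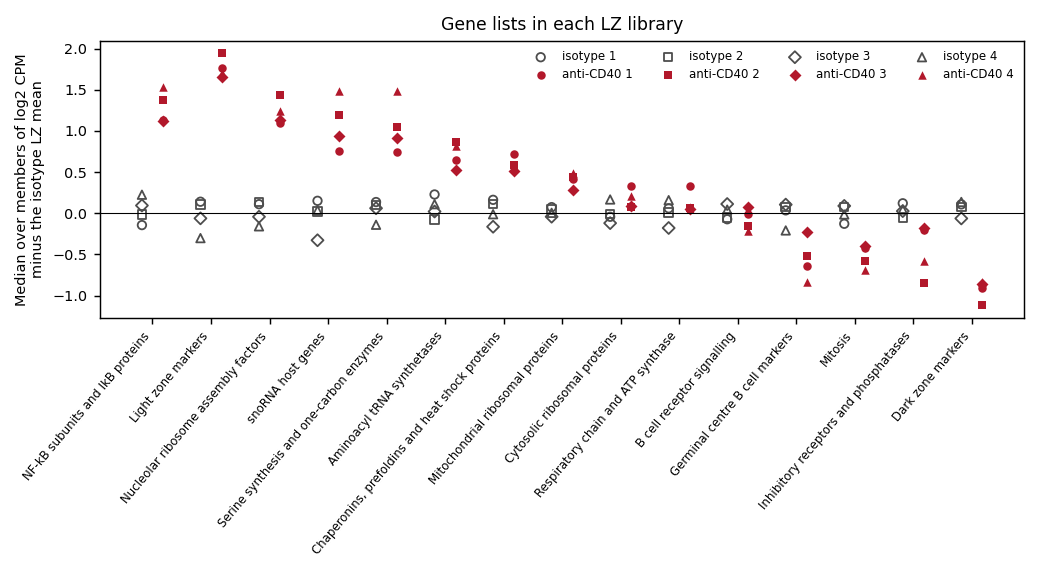
For 15 gene lists, the median over members of log2 CPM minus the isotype LZ mean is shown in each isotype library (open grey) and each anti-CD40 library (red), with 1 symbol per library number. Nucleolar genes lie between 1.09 and 1.44 in the anti-CD40 libraries, and inhibitory receptors are lower in libraries 2 and 4 (-0.85 and -0.58) than in 1 and 3 (-0.20 and -0.18).

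The same antibody had been followed in DZ cells with other libraries, so that both changes can be set side by side. There 163 of the 6824 genes passed (2.39%). Of the 740 genes higher in LZ cells, 694 were above 0 in DZ cells and 134 passed there, and of the 562 lower genes 520 were below 0 and 7 passed. None passed in the opposite direction. The shares with the same sign in DZ cells were 93.8 and 92.5%, beside 69.1% of all tested genes (4718 of 6824). The median change was 1.09 in LZ and 0.51 in DZ cells for the higher genes, and -1.06 and -0.33 for the lower ones. As these genes were chosen for their LZ change, their LZ medians are raised by that choice. Tested for the difference itself, 1 of 6824 genes passed in edgeR (0.0147%), and 586 had an unadjusted p under 0.05. The gene was Cacna1i, at -4.82 in LZ and -0.60 in DZ cells (adjusted p of the difference = 0.0388). No gene passed without any 1 of the 4 isotype LZ libraries or without anti-CD40 LZ library 2 or 4, and 2 passed without anti-CD40 LZ library 3. DESeq2 gave 37 such genes, and edgeR with the library number as a block over all 16 libraries gave 107. The labels do not say whether LZ and DZ libraries of the same number share an animal. The main test of the difference took them as independent. Efnb1, Pxdc1 and Mxd4 did not pass for the difference, with -2.27 against -0.87, -3.13 against -1.05 and -2.53 against -0.42 (adjusted p = 0.113, 0.136 and 0.136). Myc had 3.05 and 2.26 (adjusted p = 0.62) and Cd40 1.71 and 1.80 (adjusted p = 0.921).

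**Figure D5:**
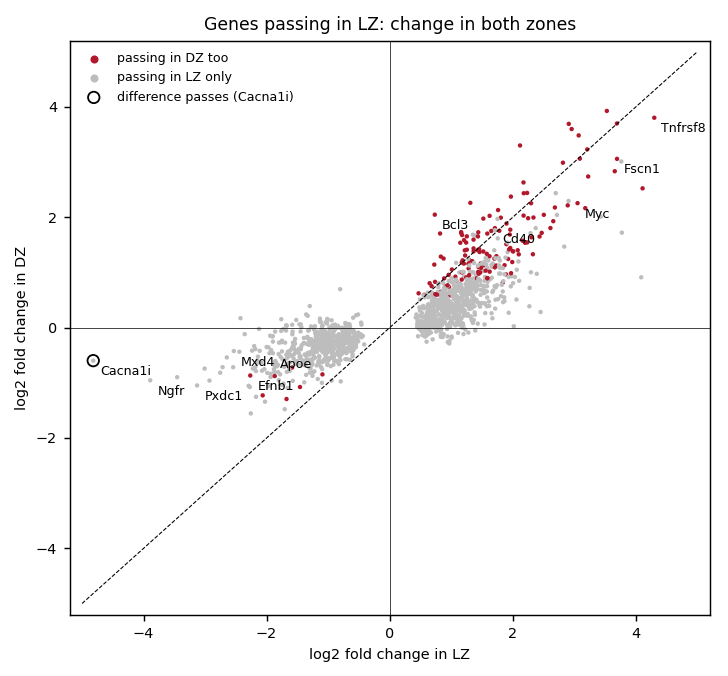
Each point is 1 of the 1302 genes that passed in LZ cells, with its log2 fold change in LZ (horizontal) and in DZ cells (vertical). Red points also passed in DZ cells, the dashed line marks equal changes, and the circle is Cacna1i, at -4.82 in LZ and -0.60 in DZ cells.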

How the data were processed

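Gene expression was measured in 16 libraries (4 groups of 4) of sorted LZ and DZ germinal centre B cells, grouped by the sample titles. Per the labels' protocols, messenger RNA was barcoded at reverse transcription, pooled, amplified linearly by in vitro transcription and sequenced from paired ends. The submitters' processing notes name cutadapt, STAR, HTSeq and DESeq2 without versions or roles, and the mouse build mm10. The deposited values analysed are raw UMI counts per gene, as the authors' column names say, for 9443 genes with no immunoglobulin segment or mitochondrially encoded gene among them. For comparison, log2 fold changes and an adjusted p-value per gene from the authors' deposited LZ comparison, by DESeq2 per the file headers, were counted at the same threshold. The 32 other per-sample columns were not used.

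The counts were tested with edgeR 4.0.16 in R 4.3.3 (TMM factors, robust quasi-likelihood fit of 4 group means over all 16 libraries, which share 1 estimate of the spread). Genes had to pass the tool's expression filter with a minimum count of 10, which left 6824 genes, and a call is a Benjamini-Hochberg adjusted p under 0.05 over all of them. A standard error is the size of the log2 fold change over the square root of its F value. The CPM shown have no pseudocount. Ratios of summed UMI carry exact 95% intervals, which cover counting error only. DESeq2 1.42.0 and limma 3.58.1 served as alternatives, beside other scalings, filters, a fit on LZ libraries alone, a replicate block and single libraries left out. In simulated counts with 100 genes changed 2-fold and 100 changed 4-fold, the LZ comparison recovered 29 and 85 of them over 6824 genes, with 4 false calls. Apart from those changes, each simulated gene had the same mean in all 16 libraries. No difference between LZ and DZ cells and no shift of the libraries numbered 4 was included. Fewer genes changed there than were called here, so these rates cannot be carried over to the real comparison.

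Genes were named by rule: Myc and Cd40, the 20 largest rises and falls among called genes without overlap whose higher group averaged 20 CPM or more, the 15 largest gains and losses in CPM among these, up to 6 members of each list with the smallest adjusted p, up to 10 genes each way with a passing difference between LZ and DZ, and called genes with no UMI in 1 LZ group. The text gives a selection of these and marks others as named after their values were seen, unless they are list members that did not pass. The comparison, the members and the lists were chosen with earlier results of these data known. A few genes that the rule reached are not reported here. Lists were described by counts and medians, without a test, and promoter windows of 300 bases came from RefSeq.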

Additional observations from a re-analysis of the deposited data

Results flagged for a closer look

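A gap of 1 library from the other 3 that exceeded Dixon's 95% critical value for 4 samples, as a share of the group's range, was found in 22 of 354 groups, from 177 genes. Chance alone gives about 1 in 20 groups. Of the 22, 8 were in isotype LZ library 4, which was low for Basp1 (1109 CPM), Cct6a (125 CPM), Cox5a (194 CPM) and Tank (22.9 CPM). The same library was high for Cxcr4 (388 CPM), Gapdh (421.5 CPM), Myo1g (564 CPM) and Rev1 (130.5 CPM). For Gapdh the other isotype libraries lay between 13.4 and 22.3 CPM, and for Cox5a between 537.5 and 573 CPM.

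In the other isotype libraries, Bcl2l1 was high in library 3 (54.1 CPM), Erap1 high in library 2 (22.3 CPM), and in library 1 Slc29a2 was high (4.03 CPM, with no UMI in the other 3) and Mthfd2 low (82.0 CPM). Among anti-CD40 LZ libraries, number 3 was high for Tnfaip3 (149 CPM), Itgb7 (11.3 CPM) and Cacna1i (2.25 CPM) and low for Eif3g (576 CPM) and Ldha (916 CPM). Library 2 was high for Ccnd2 (225.5 CPM) and Imp4 (221 CPM). Library 1 was high for Ifi30 (2474 CPM) and low for Ly9 (257 CPM), and library 4 was low for Eif2ak3 (17.4 CPM).

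The response of Cacna1i, the calcium channel gene, differed between LZ and DZ cells by -4.22 on the log2 scale, LZ minus DZ. It passed the edgeR test of that difference over all genes (adjusted p = 0.0388).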

How the results depend on the processing

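Of 169 genes named as changed, 141 kept their call under every alternative that tested them and 28 lost it under at least 1, most often without anti-CD40 library 2, where 20 were lost. At least 1 alternative did not test 11 of the 169. None changed direction while called. The number of changed genes was 1304 with RLE scaling, 1354 with upper quartile scaling, 1270 with no filter, 1241 with a stricter filter, 1362 with DESeq2, 1168 with limma-voom and 931 when only LZ libraries were fitted. The authors' deposited table gave 1296, of which 1191 were called here in the same direction. With 1 library left out in turn, 876 to 1240 genes changed, 488 to 734 were higher and 388 to 586 lower. Myc ranged from 2.85 to 3.28 and Cd40 from 1.64 to 1.77 in log2 fold change. Genes that differed between LZ and DZ cells numbered 2 with upper quartile scaling, 37 with DESeq2, 0 without the libraries numbered 4 and 0 to 2 with 1 library left out, where 1 passed in edgeR, so that this count is not stable. The cause of these shifts was not tested.

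Equal replicate numbers in the labels were not taken to pair the LZ libraries, as only 2 of 4 same-numbered pairs correlated by more than 0.1. The deviations of same-numbered libraries correlated by 0.134, 0.0157, 0.0117 and 0.492, and those of differently numbered ones by -0.399 to 0.34. LZ and DZ libraries of the same number were not compared in this way. A replicate block over all 16 libraries gave 2013 changed genes, 1129 higher and 884 lower, and 107 genes that differed between LZ and DZ cells. The block within LZ libraries gave 1328 changed genes. At 527241 to 914975 UMI per LZ library, a gene with few UMI can be compared only coarsely.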
